A study of Homo sapiens with 171 samples.

Results

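The genes described here are 10 sensors of misplaced nucleic acid and their nearest partners. CGAS, STING1, IFI16, AIM2 and ZBP1 belong to DNA and Z-form nucleic acid sensing, and RIGI, IFIH1, DHX58, MAVS and TLR3 to RNA sensing. They were chosen by gene symbol, with earlier results of these data known. Each was read by 1 probe set of the array, among 18417 genes measured. The values come from 46 established ovarian cancer cell lines on Affymetrix arrays, in cells exposed to cisplatin (48 h, at the GI50 of the line in question) and in untreated cells of the same line. Cisplatin damages DNA by binding platinum to its bases, and its dose differed between lines. The labels give 92 groups, a cisplatin and an untreated group for each line, and name no genetic change to any line. There were 82 cisplatin cultures and 85 untreated cultures in 5 batches. Batches 1 to 3 held 18 replicated lines with 3 cultures of each kind (only 2 cisplatin cultures for HeyA8). The changes of the other 28 lines, from batches 4 and 5, rest on a single culture of each kind. The labels number the cultures but do not say whether each was grown on its own, and p-values for 1 line therefore reflect only how much these samples scatter, part of which may be technical.

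A cell detects DNA or RNA in the wrong place through a few receptors. cGAS binds DNA in the cytosol and makes a cyclic dinucleotide that activates STING on the endoplasmic reticulum, while RIG-I (gene RIGI) and MDA5 (IFIH1) bind double-stranded RNA and signal through MAVS on mitochondria. Both routes reach the kinase TBK1 and the factors IRF3 and NF-kB, which switch on interferon and, through it, interferon-stimulated genes, among them several of the sensors themselves.

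All values are on the log2 scale as deposited, so a difference of 1 is a doubling, and a change is the cisplatin level minus the untreated level of the same line and batch. Levels were set against each other only for 1 gene and within 1 batch, apart from spreads and correlations over all lines. Those used levels minus the median of their batch. The reason was scale: the upper quartile of an array lay at 7.82 to 8.08 in batches 1 to 3 and at 5.80 to 6.59 in batches 4 and 5. Libraries of 7 lines were taken to stand apart. In OVCAR-10, cisplatin culture 1 correlated 0.959 with its own line and 0.961 with a DOV13B culture. The cisplatin array of Hey correlated 0.834 with its untreated partner. The cisplatin array of OAW28 correlated 0.955 with its partner and 0.957 with M41, and its untreated array 0.965 with M41. The cisplatin array of SKOV-6 correlated 0.959 with its partner and 0.966 with SKOV-4, and that of TOV-21G 0.974 with its partner and 0.979 with TOV-112D. Over 2000 variable genes centred within batch, cisplatin culture 3 of OVCA420 reached 0.839 with its own line and 0.550 with OVCA429, and untreated culture 1 of A2008 0.798 with its own line and 0.584 with C13. The cisplatin arrays of OV56, UWB1.289, OVCA432 and PEO1 reached only 0.729, 0.755, 0.788 and 0.79 with their partners over these genes. Those lines were not among the 7 and stayed in the fits that left such libraries out. Some lines also had like profiles: over the same genes PA-1 reached a correlation of 0.885 with CH1, Caov-2 of 0.889 with OVCAR-2, TOV-112D of 0.885 with TOV-21G, SKOV-6 of 0.867 with SKOV-4 and OVCAR-10 of 0.809 with A2780cisR, so the lines may not all be independent. As a check of the labelled cell type, the mean of 8 ovarian carcinoma markers minus the array median ran from -0.54 to 3.51 (median 1.99) in cisplatin cultures and from -0.57 to 3.76 (median 2.02) in untreated cultures. The mean of 6 endothelial markers ran from -2.1 to 2.64 (median -1.21) in cisplatin cultures and from -2.17 to 2.61 (median -1.19) in untreated cultures. The mean of 13 leukocyte markers ran from -2.16 to -0.49 in cisplatin cultures and from -2.15 to -0.84 in untreated cultures. Of these, CD3E, CD3D, CD2, MS4A1, CD14, ITGAM and CD163 lay above the array median in 0 of 167 cultures, CSF1R in 1, CD79A in 3, PTPRC in 6, SPI1 in 31, NKG7 in 47 and LAPTM5 in 51.

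The stretch of DNA before each start site is shown for RIGI and IFI16, the 2 genes that passed the test over all lines, for IFIH1, whose change followed that of RIGI most closely, and for AIM2, which stayed dim. RefSeq (GRCh38.p14) had promoter entries for 6 of the 10 genes, 7 entries in all; CGAS, STING1, ZBP1 and DHX58 are named only. Each sequence is the 250 bases before the start, 5′ to 3′ on the strand of the gene, and capitals mark letters that match the interferon-stimulated response element searched, GAAANNGAAA on either strand.
RIGI, chr9:32526197-32526446, minus strand: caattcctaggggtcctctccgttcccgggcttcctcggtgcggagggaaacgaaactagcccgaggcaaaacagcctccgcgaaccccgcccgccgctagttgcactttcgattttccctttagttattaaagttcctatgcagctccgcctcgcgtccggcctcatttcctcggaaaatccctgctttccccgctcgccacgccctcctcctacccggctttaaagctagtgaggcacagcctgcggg
IFI16, chr1:159008741-159008990, plus strand, first of 2 entries: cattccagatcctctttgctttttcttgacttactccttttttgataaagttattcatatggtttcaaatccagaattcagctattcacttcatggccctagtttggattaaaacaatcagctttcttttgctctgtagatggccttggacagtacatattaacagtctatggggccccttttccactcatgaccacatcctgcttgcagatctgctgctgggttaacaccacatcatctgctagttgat
IFIH1, chr2:162318685-162318934, minus strand: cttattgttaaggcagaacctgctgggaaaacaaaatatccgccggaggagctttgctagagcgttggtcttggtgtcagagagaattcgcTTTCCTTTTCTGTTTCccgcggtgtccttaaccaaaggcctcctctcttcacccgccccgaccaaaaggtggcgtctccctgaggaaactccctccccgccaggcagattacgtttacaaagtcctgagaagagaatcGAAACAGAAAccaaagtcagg
AIM2, chr1:159076767-159077016, minus strand: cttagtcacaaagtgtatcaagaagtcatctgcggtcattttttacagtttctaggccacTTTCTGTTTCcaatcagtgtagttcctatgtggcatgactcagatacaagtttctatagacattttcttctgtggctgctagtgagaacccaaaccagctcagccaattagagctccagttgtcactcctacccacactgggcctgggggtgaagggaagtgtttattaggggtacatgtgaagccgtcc
The IFIH1 window held 3 matches, at 159, 153 and 21 bases before the start, of which the first and second overlap. The AIM2 window held 1 match, at 190 bases, and the windows of RIGI, IFI16, MAVS and TLR3 held none of these letters. Of 35116 promoter windows, 3.02% held a match, and of 25 listed interferon-stimulated genes with an entry, 72.0% did. An NF-kB pattern, GGGANNNNCC on either strand, lay in the RIGI window at 76 bases and in the IFIH1 window at 89 and 76 bases, against 22.6% of all windows. A match is a description of letters and not a site of binding.

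Untreated lines differed widely in 3 of the sensors. Centred within batch, the standard deviation of the untreated level over 46 lines was 2.38 for IFI16, 1.92 for CGAS and 1.78 for IFIH1, against a median of 0.397 over all genes. These values lay at percentiles 99.7, 98.7 and 98.3 of all genes. TLR3 (1.14), RIGI (1.07) and STING1 (0.85) followed. DHX58 (0.34), MAVS (0.29), AIM2 (0.24) and ZBP1 (0.23) varied less than the median gene. The centre was the median line of each batch. For IFI16 it lay at 8.29 in batch 1 (OVCA429) and at 3.73 in batch 3 (IGROV-1). Centred values of different batches thus have no common zero, and these spreads depend in part on which lines a batch held. Between the lines of 1 batch, 8 of the 10 genes passed limma's F test in batch 1, 10 in batch 2 and 8 in batch 3. Of all genes, 77.1%, 79.8% and 76.7% did in these batches, so the counts lie near the background. AIM2 and ZBP1 were the exceptions, with an adjusted p of 0.895 and 0.218 in batch 1 and of 0.247 and 0.0967 in batch 3.

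CGAS, which encodes the cytosolic DNA sensor, lay at a low or a high level with few lines between in the replicated batches. In batch 1 it averaged 3.55 ± 0.21 in PA-1 and 4.04 ± 0.62 in A2780 (SD, n = 3 each), 6.69 ± 0.10 in OVCA429, and 8.22 to 8.69 in HeyC2, OVCA420, TYK-nu and HeyA8. In batch 2 it averaged 3.62 in CH1, 3.79 in FU-OV-1 and 3.86 in OV90, against 7.75 in DOV13, 8.20 in A2008 and 8.58 in OVCA433. In batch 3 OVCAR-10 and IGROV-1 lay at 3.80 and 3.84, and DOV13B, OVCAR-8 and C13 at 7.80, 8.57 and 9.39. Neighbours within the low set overlapped in their cultures in batches 1 and 3, and in batch 2 CH1 lay just below FU-OV-1 while FU-OV-1 and OV90 overlapped. With 1 culture per line, batch 4 ran from 3.88 in SKOV-4 to 7.62 in Caov-3 and batch 5 from 2.95 in SKOV-6 to 8.02 in UWB1.289. These values cannot tell fewer cells that carry the transcript from less transcript per cell.

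STING1, the adaptor on which cGAS acts, had its own order. It was lowest in PA-1 (5.98 ± 0.38, SD, n = 3) and A2780 (6.11 ± 0.25) of batch 1 and highest in TYK-nu (9.76 ± 0.15), whose cultures did not overlap with those of any other line of the batch. In batch 2 OV90 and CH1, at 6.10 and 6.24, overlapped, and A2008 was highest at 8.43. In batch 3 it ran from 6.17 in OVCAR-10 to 8.54 in OVCAR-8. FU-OV-1 had CGAS among the low lines of its batch and STING1 at 7.79 ± 0.09. Across the 46 lines the centred untreated levels of CGAS and STING1 had a Pearson r of 0.62 and a Spearman rho of 0.51. This is a description over points that share arrays and batches, and the batch medians that centre them are not a common zero.

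IFI16, a nuclear and cytosolic DNA-binding protein of the PYHIN family, split the lines most. In batch 1 it averaged 4.31 ± 0.18 in A2780 and 9.86 ± 0.15 in TYK-nu (SD, n = 3 each). In batch 2 FU-OV-1 was lowest at 3.84 and DOV13 highest at 9.13. In batch 3 OVCAR-8, OVCAR-10 and IGROV-1 overlapped at 3.61, 3.68 and 3.73, while C13 and DOV13B lay at 8.87 and 9.89. OVCAR-8 thus had IFI16 at the bottom of its batch and CGAS, STING1 and RIGI at or near the top. In batch 4, 6 lines lay between 2.23 and 2.90 and the other 6 between 6.14 and 7.93, with no line between. In batch 5 it ran from 2.54 in OVK-18 to 9.67 in JHOS-3.

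The other DNA-side sensors were dim. AIM2, the inflammasome sensor of the same PYHIN family, lay above the lower quartile of its array in 1 of 167 cultures, and its line means ran from 2.82 to 3.18 in batches 1 to 3 apart from OVCA433 at 4.04 in batch 2. ZBP1, which binds Z-form nucleic acid and can start necroptosis, lay above the array median in 0 of 167 cultures, and its line means ran from 4.98 to 5.56 in those batches.

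RIGI, which senses RNA ends, was highest in TYK-nu (8.26 ± 0.10) and lowest in A2780 (5.74 ± 0.12) of batch 1, and no culture of TYK-nu overlapped with another line. In batch 2 FU-OV-1 was lowest at 5.56 and OVCA433 highest at 8.09, and in batch 3 IGROV-1 lay at 5.18 and OVCAR-8 at 8.02. In batch 5 UWB1.289 lay at 3.05 with the next line, SKOV-6, at 6.01, and JHOS-3 lay at 10.51 with the next line, OAW28, at 8.20. These ends of batch 5 are single cultures.

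IFIH1, which senses long double-stranded RNA, had the single most separate line. OV90 held 11.03, 11.08 and 10.94 in its untreated cultures, against a mean of 7.52 ± 0.03 in OVCA433, the next line of batch 2 (SD, n = 3). CH1 was lowest in that batch at 3.98 ± 0.20. In batch 1 the range was 3.98 in PA-1 to 7.74 in TYK-nu, and in batch 3 it was 4.17 in IGROV-1 to 7.17 in DOV13B. In batch 5 TOV-112D, TOV-21G, JHOS-3 and UWB1.289 lay at 11.43, 10.92, 10.52 and 9.96, with the next line, OVCAR-5, at 8.21. UWB1.289 therefore had the lowest RIGI and the fourth highest IFIH1 of its batch. RIGI and IFIH1 were not ordered alike in OV90 either, where RIGI averaged 6.35 ± 0.32.

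TLR3, the endosomal receptor for double-stranded RNA, ran from 5.11 in A2780 to 8.43 in OVCA429 of batch 1, from 5.23 in OV90 to 8.45 in A2008 of batch 2 and from 4.56 in IGROV-1 to 9.09 in C13 of batch 3. The lines of the A2008 and C13 pair thus held the top place in both of their batches. In batch 4 Caov-2 was lowest at 2.78. MAVS, the mitochondrial adaptor, lay above the array median in 161 of 167 cultures and ran only from 7.69 to 8.80, from 7.69 to 8.48 and from 7.29 to 7.99 in batches 1, 2 and 3. DHX58, which encodes LGP2, a relative of RIG-I without signalling domains, lay above the array median in 4 cultures. It ran from 4.88 to 6.07, from 4.88 to 6.02 and from 5.09 to 6.49 in those batches.

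**Figure D1:**
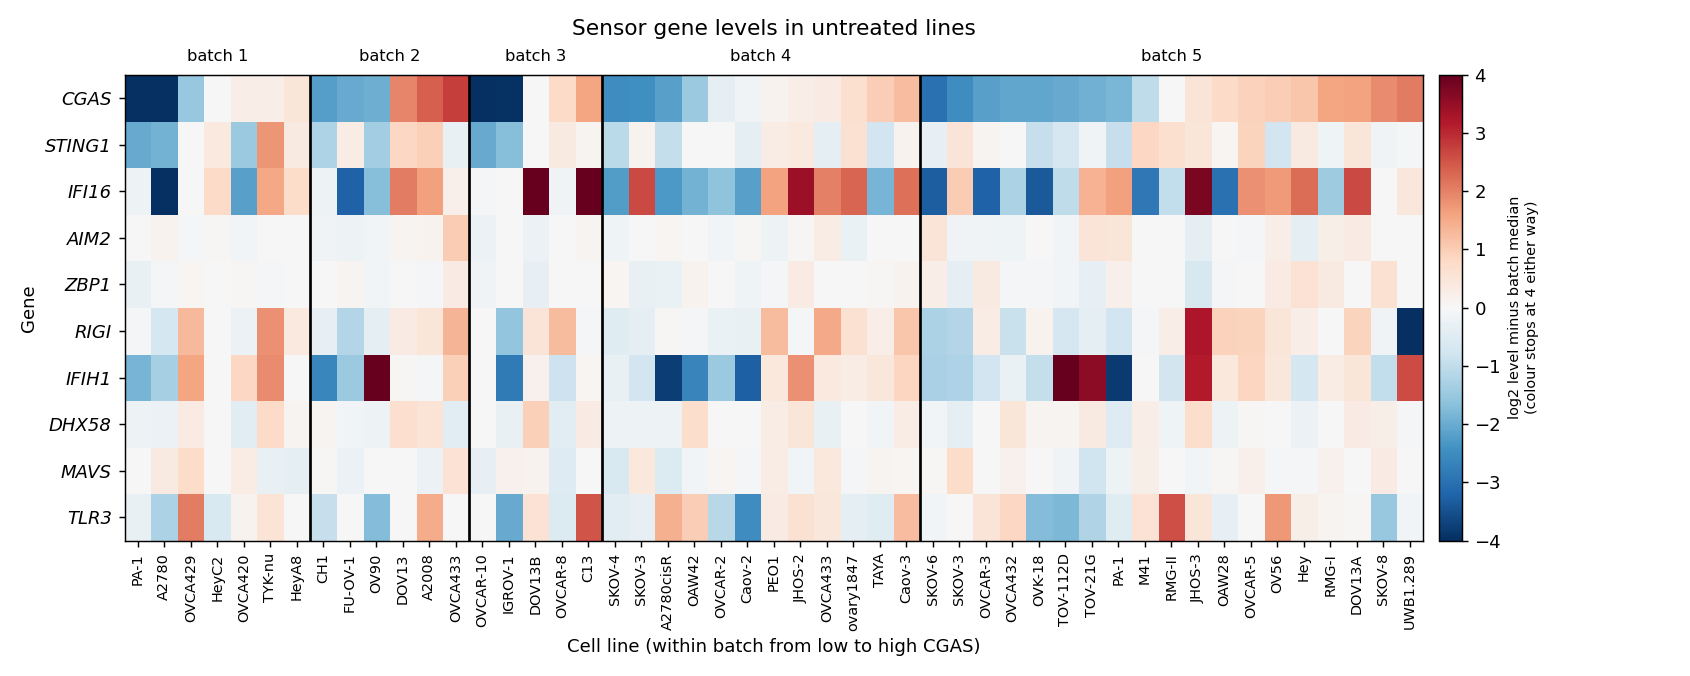
Untreated log2 level of each sensor gene (rows) in each cell line (columns), minus the median of its batch, with lines ordered within batch by CGAS. Red is above and blue below the batch median, and colour stops at 4 either way. White stands for another level in each batch, so colours compare lines within a batch only. CGAS, IFI16 and IFIH1 show the widest colours, and AIM2, ZBP1, DHX58 and MAVS stay near white.

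The lines with high or low untreated sensors matched other genes in level. Genes outside the list with the highest Pearson r to a sensor over 46 lines were PLEK2 (0.81) and LTBR (0.79) for CGAS, S100A16 (0.77) and CSRP1 (0.74) for STING1, and FRMD6 (0.71) and MYD88 (0.70) for IFI16. For RIGI they were SP140L (0.64) and CAST (0.62), for IFIH1 SP110 and PCDHB5 (0.62 each), and for TLR3 NMI (0.62) and AK4 (0.60). For AIM2, ZBP1, DHX58 and MAVS the highest r lay between 0.53 and 0.66. These points share arrays and batches, and the genes were picked as the most alike of all genes measured. The levels were centred on batch medians, which are not a common zero.

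After cisplatin, RIGI and IFI16 were higher over the 46 lines and no sensor was lower. The mean change of RIGI was 0.26 ± 0.085 (SE, n = 46), a 1.19-fold difference, with 35 lines higher and an adjusted p of 0.0452 (limma, Benjamini-Hochberg over all genes). IFI16 changed by 0.23 ± 0.077, 1.17-fold, with 33 lines higher and an adjusted p of 0.0474. IFI16 lay above the lower quartile of its array in 116 of 167 cultures, so brightness limits its change in the dim lines. Both calls lie close to the threshold of 0.05, and leaving out 1 line ended the IFI16 call in 29 of 46 cases and the RIGI call in 29 of 46. Over all genes 4.98% were higher and 4.72% lower, so 2 of 10 higher and 0 of 10 lower stand against those shares. At an unadjusted p under 0.05, 4 sensors were higher and 0 lower, beside 4067 of 18417 genes in either direction. The median mean change was 0.136 for the 10 sensors and -0.006 for all genes.

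The other sensors did not pass over the 46 lines. TLR3 changed by 0.20 ± 0.077 (SE, 33 lines higher, adjusted p = 0.102) and STING1 by 0.14 ± 0.053 (33 lines higher, adjusted p = 0.0822). IFIH1 changed by 0.17 ± 0.086 (26 lines higher, adjusted p = 0.228) and CGAS by 0.13 ± 0.086 (26 lines higher, adjusted p = 0.389). The 95% interval was 0.035 to 0.248 for STING1, 0.040 to 0.349 for TLR3 and -0.001 to 0.346 for IFIH1, before any adjustment. DHX58, AIM2 and ZBP1 had mean changes of 0.05, 0.04 and 0.02 with adjusted p of 0.521, 0.712 and 0.881. MAVS had a mean change of -0.05 ± 0.040 with 21 lines higher and an adjusted p of 0.562.

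The spread between lines was larger than these means. RIGI ran from -1.62 in OV56 to 1.58 in SKOV-6 (SD 0.603), IFIH1 from -1.30 in OVK-18 to 2.00 in SKOV-6 (SD 0.614), and CGAS from -1.97 in Hey to 1.41 in OAW28 (SD 0.611). TLR3 ran from -1.64 in OV56 to 1.53 in SKOV-6. Each of these ends is a line with 1 culture per arm. RIGI was higher in 7 of 7 lines of batch 1, 5 of 6 of batch 2, 3 of 5 of batch 3, 9 of 11 of batch 4 and 11 of 17 of batch 5, with mean changes of 0.38, 0.15, 0.42, 0.40 and 0.099 in these batches. IFI16 was higher in 7 of 7, 5 of 6, 1 of 5, 8 of 11 and 12 of 17 lines, with mean changes of 0.32, 0.33, 0.044, 0.40 and 0.10. In an F test of the 5 batches 0 of the 10 sensors and 0% of all genes passed, and at an unadjusted p under 0.05 the counts were 0 sensors and 696 genes (limma). Within 1 batch alone neither gene passed.

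**Figure D2:**
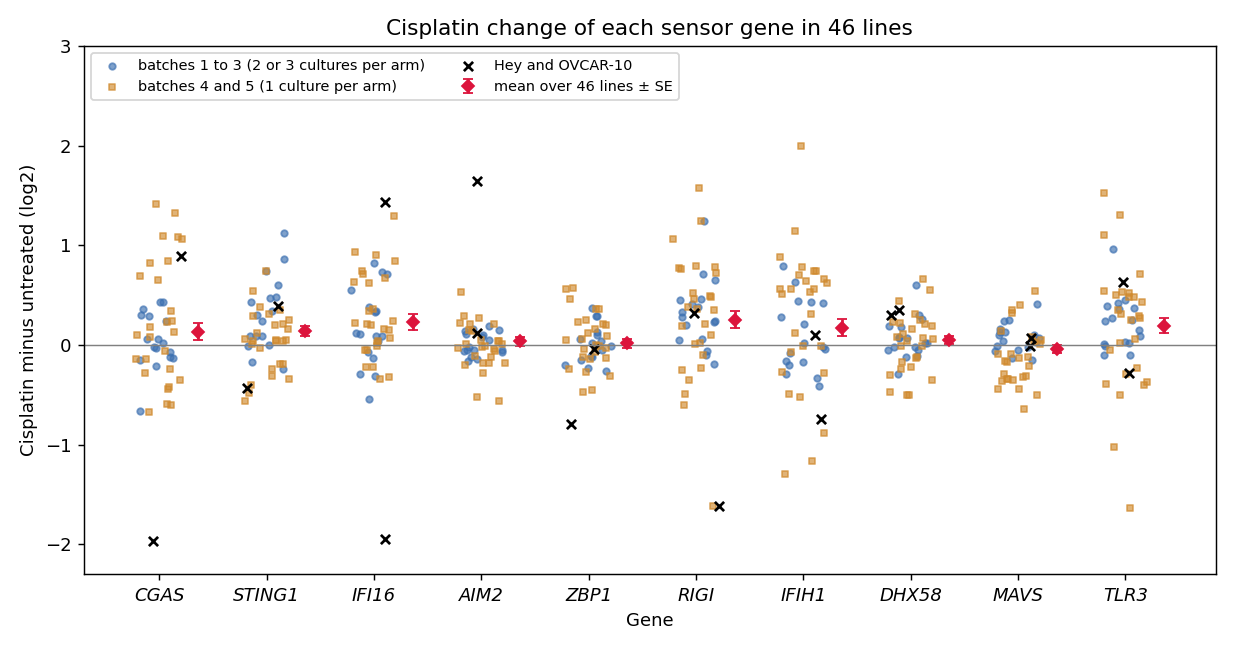
Change of each sensor gene (cisplatin minus untreated, log2, vertical axis) in each of 46 lines, with circles for lines of batches 1 to 3, squares for lines of batches 4 and 5, crosses for Hey and OVCAR-10, and a red diamond for the mean over 46 lines with its SE. The means of RIGI and IFI16 lie at 0.26 and 0.23, while single lines run from -1.97 to 2.00.

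The libraries that stood apart moved several of these values. In Hey the change was -1.97 for CGAS, -1.95 for IFI16, -1.62 for RIGI and 1.64 for AIM2, and the median change of all genes in that line was -0.169. Without Hey and without cisplatin culture 1 of OVCAR-10, the IFI16 mean was 0.24 ± 0.060 (SE) with an adjusted p of 0.00452, and the RIGI mean was 0.30 ± 0.077 with an adjusted p of 0.00604, over 45 lines. Over all genes 7.62% were then higher and 5.17% lower. With OAW28 also left out the IFI16 mean was 0.24 with an adjusted p of 0.00538 and the RIGI mean 0.27 with an adjusted p of 0.0107, and without OAW28 alone no sensor passed. STING1 did not pass in either of these sets of left-out libraries (adjusted p = 0.0663 and 0.0788), but it did without Hey alone (0.15, adjusted p = 0.0406). Lines with like profiles were also joined, together with the Hey, DOV13 and A2780 families, A2008 with C13, and OVCA429 with OVCA433. Over the resulting 34 values the mean was 0.28 for RIGI (adjusted p = 0.0281) and 0.23 for IFI16 (adjusted p = 0.0316). Without SKOV-6 alone, the line with the highest RIGI, IFIH1 and TLR3 changes, no sensor passed (adjusted p = 0.0690 for RIGI and 0.0606 for IFI16). With Hey, OAW28, SKOV-6 and TOV-21G and the cultures of OVCAR-10, OVCA420 and A2008 that stand apart all left out, 42 lines remained, OV56 among them. The mean was then 0.25 ± 0.072 (SE) for RIGI (adjusted p = 0.0144), 0.22 ± 0.062 for IFI16 (adjusted p = 0.0132) and 0.16 ± 0.053 for STING1 (adjusted p = 0.0433), beside 7.02% of all genes higher and 5.44% lower. These sets were chosen after the data were seen.

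Within the 18 replicated lines, 16 of the 180 pairs of a sensor and a line were higher after cisplatin and 0 were lower (limma contrasts with 71 residual degrees of freedom, adjusted over all genes within a line). Over all genes 4.55% of such pairs were higher and 3.68% lower. At an unadjusted p under 0.05 the counts were 37 higher and 2 lower, the lower ones being IFIH1 in DOV13B and DHX58 in CH1. The share of pairs over all genes at that looser threshold was not counted, so these counts have no background beside them. STING1 and RIGI were each called in 4 lines, IFIH1, MAVS and TLR3 in 2 each, and DHX58 and IFI16 in 1 each. CGAS, AIM2 and ZBP1 were called in none. OVCA420 and OVCAR-8 had 3 calls each, and 9 lines had none. Of all genes, 5.89% were higher in HeyA8, 2.83% in HeyC2, 6.96% in OVCA420, 17.3% in FU-OV-1, 0.852% in OVCA433 and 10.3% in C13. In OVCAR-10, OVCAR-8 and TYK-nu the shares were 2.93%, 9.12% and 0.0543%. Of the 16 calls, 7 held in each of 53 fits that left out 1 culture: RIGI in C13, OVCAR-8 and OVCA420, STING1 in HeyA8 and FU-OV-1, IFIH1 in OVCAR-8 and TLR3 in OVCA420.

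STING1 had 9.51 and 9.40 in the cisplatin cultures of HeyA8, against 8.28, 8.15 and 8.59 in the untreated cultures. The groups did not overlap, and the change was 1.12 ± 0.21 (SE), with an adjusted p of 4.47e-05. In HeyC2, a line of the same name family, STING1 had 9.11, 9.09 and 9.16 in cisplatin cultures, against 8.41, 8.42 and 8.29 in untreated cultures (0.75 ± 0.19, adjusted p = 0.00779). FU-OV-1 had 8.56, 8.65 and 8.75 after cisplatin, against 7.77, 7.71 and 7.89 untreated (0.87 ± 0.19, adjusted p = 0.000168). OVCAR-8 had 9.37, 9.01 and 9.04 after cisplatin, against 8.69, 8.54 and 8.40 untreated (0.60 ± 0.19, adjusted p = 0.0231). In each of these 4 lines every cisplatin culture lay above every untreated one. In A2780, at the other end, STING1 changed by -0.24. The change differed between the 18 lines (F test, adjusted p = 0.000586).

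RIGI in C13 was the call with the lowest adjusted p. C13 had 7.68, 8.17 and 7.94 in cisplatin cultures, against 6.56, 6.63 and 6.86 in untreated cultures. The groups stood apart by more than their spread, with a change of 1.24 ± 0.15 (SE, 2.36-fold) and an adjusted p of 3.22e-10. OVCAR-8 had 9.0, 8.85 and 8.35 after cisplatin, against 8.07, 7.95 and 8.03 untreated (0.71 ± 0.15, adjusted p = 0.000181). OVCA420 had 6.86, 6.55 and 7.10 after cisplatin, against 6.25, 6.23 and 6.07 untreated (0.66 ± 0.15, adjusted p = 0.000793). OVCA433 had 8.65, 8.54 and 8.67 in the cisplatin cultures of batch 2, against 8.24, 7.91 and 8.12 untreated (0.53 ± 0.15, adjusted p = 0.0254). None of these groups overlapped, but in batch 4, with 1 culture per arm, RIGI in OVCA433 changed by 0.07. The smallest RIGI change was -0.19 in OV90, and the changes differed between the 18 lines (adjusted p = 1.45e-06).

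IFIH1 was called in 2 of the lines in which RIGI was called. OVCAR-8 had 7.26, 7.21 and 6.46 after cisplatin, against 5.96, 6.25 and 6.35 untreated (0.79 ± 0.18, adjusted p = 0.00108). OVCA420 had 7.09, 7.34 and 7.48 after cisplatin, against 7.0, 6.48 and 6.53 untreated (0.63 ± 0.18, adjusted p = 0.0131). In C13, where RIGI changed most, IFIH1 changed by -0.08. TLR3 had 7.32, 7.18 and 7.89 after cisplatin in OVCA420, against 6.65, 6.50 and 6.36 untreated (0.96 ± 0.18, adjusted p = 3.81e-05), and RIGI, IFIH1 and TLR3 all passed in OVCA420. Cisplatin culture 3 of OVCA420, which stands apart, held the highest of its cisplatin values for each of the 3 genes. Without it the changes were 0.53 for RIGI (adjusted p = 0.0279), 0.54 for IFIH1 (adjusted p = 0.0988) and 0.75 for TLR3 (adjusted p = 0.00592), so that IFIH1 no longer passed. In OVCAR-10 TLR3 had 7.47, 7.11 and 7.02 after cisplatin, against 6.47, 6.70 and 6.53 untreated (0.64 ± 0.18, adjusted p = 0.0240), and without cisplatin culture 1 of that line it did not pass. The F test between lines gave an adjusted p of 0.000496 for IFIH1 and 0.0139 for TLR3.

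The partners of the RNA sensors moved in few lines. MAVS had 8.02 and 8.18 after cisplatin in HeyA8, against 7.81, 7.46 and 7.79 untreated (0.41 ± 0.10, adjusted p = 0.00243), and in FU-OV-1 it changed by 0.25 ± 0.09 (adjusted p = 0.0373). These are also lines in which STING1 was called. DHX58 had 6.83, 6.54 and 6.65 after cisplatin in TYK-nu, against 5.82, 6.04 and 6.34 untreated, with no overlap (adjusted p = 0.0473). IFIH1 and RIGI changed by 0.43 and 0.46 in TYK-nu without a call. The F test between lines gave an adjusted p of 0.0234 for DHX58 and 0.0201 for MAVS. In all, 6 of the 10 sensors differed in their change between the 18 lines, beside 51.0% of all genes.

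IFI16 in OVCAR-10 is the call that rests on 1 library. Its cisplatin cultures had 8.60, 3.41 and 3.31, against 3.08, 3.52 and 4.43 in the untreated cultures, so the groups overlap. The change was 1.43 ± 0.45 (adjusted p = 0.0483), and -0.32 without culture 1 (adjusted p = 0.952). In culture 1 CGAS lay at 6.88 and STING1 at 7.73, against 3.53 to 3.70 and 5.90 to 6.03 in the other cisplatin cultures. Without this culture the residual SD was 0.251 for IFI16, 0.284 for CGAS and 0.165 for STING1, against 0.565, 0.424 and 0.237 with it. The cause of its difference was not tested.

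Without that culture 21 of the 180 pairs were higher and 0 lower, beside 4.96% and 4.00% of pairs over all genes. IFI16 was then called in OVCA420 (0.82, adjusted p = 0.00182), PA-1 (0.74, adjusted p = 0.00374) and CH1 (0.71, adjusted p = 0.0315). In OVCA420 its cisplatin cultures had 6.61, 6.62 and 7.60, against 6.38, 6.0 and 5.98 in untreated cultures. In PA-1 its cisplatin cultures had 8.81, 8.81 and 8.85, against 8.21, 7.87 and 8.18 in untreated cultures. In CH1 the cisplatin cultures had 7.69, 7.63 and 7.45, against 6.69, 6.98 and 6.97 in untreated cultures. PA-1 and CH1 have like profiles, so these may not be independent lines. STING1 was also called in OVCA420 (0.48) and in C13 (0.47), RIGI in HeyC2 (0.45) and MAVS in C13 (0.24), while IFI16 and TLR3 in OVCAR-10 were not. The change of IFI16 then differed between lines (F test, adjusted p = 0.000191), beside 53.6% of all genes. With OVCA420 cisplatin culture 3 and A2008 untreated culture 1 left out as well, 18 pairs were higher and 1 lower, beside 5.16% and 4.08% of pairs over all genes. In OVCA420 IFI16 then changed by 0.50 (adjusted p = 0.133), STING1 by 0.33 (adjusted p = 0.166) and IFIH1 by 0.54 (adjusted p = 0.0864), and none of these passed. The lower pair was IFI16 in OVCAR-8 (-0.54, adjusted p = 0.0316), with 3.55, 2.38 and 3.26 in cisplatin cultures against 3.50, 4.03 and 3.28 in untreated cultures, which overlap. OVCAR-8 had the lowest untreated IFI16 mean of its batch, so brightness limits this change. TLR3 no longer differed between lines in that fit.

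**Figure D3:**
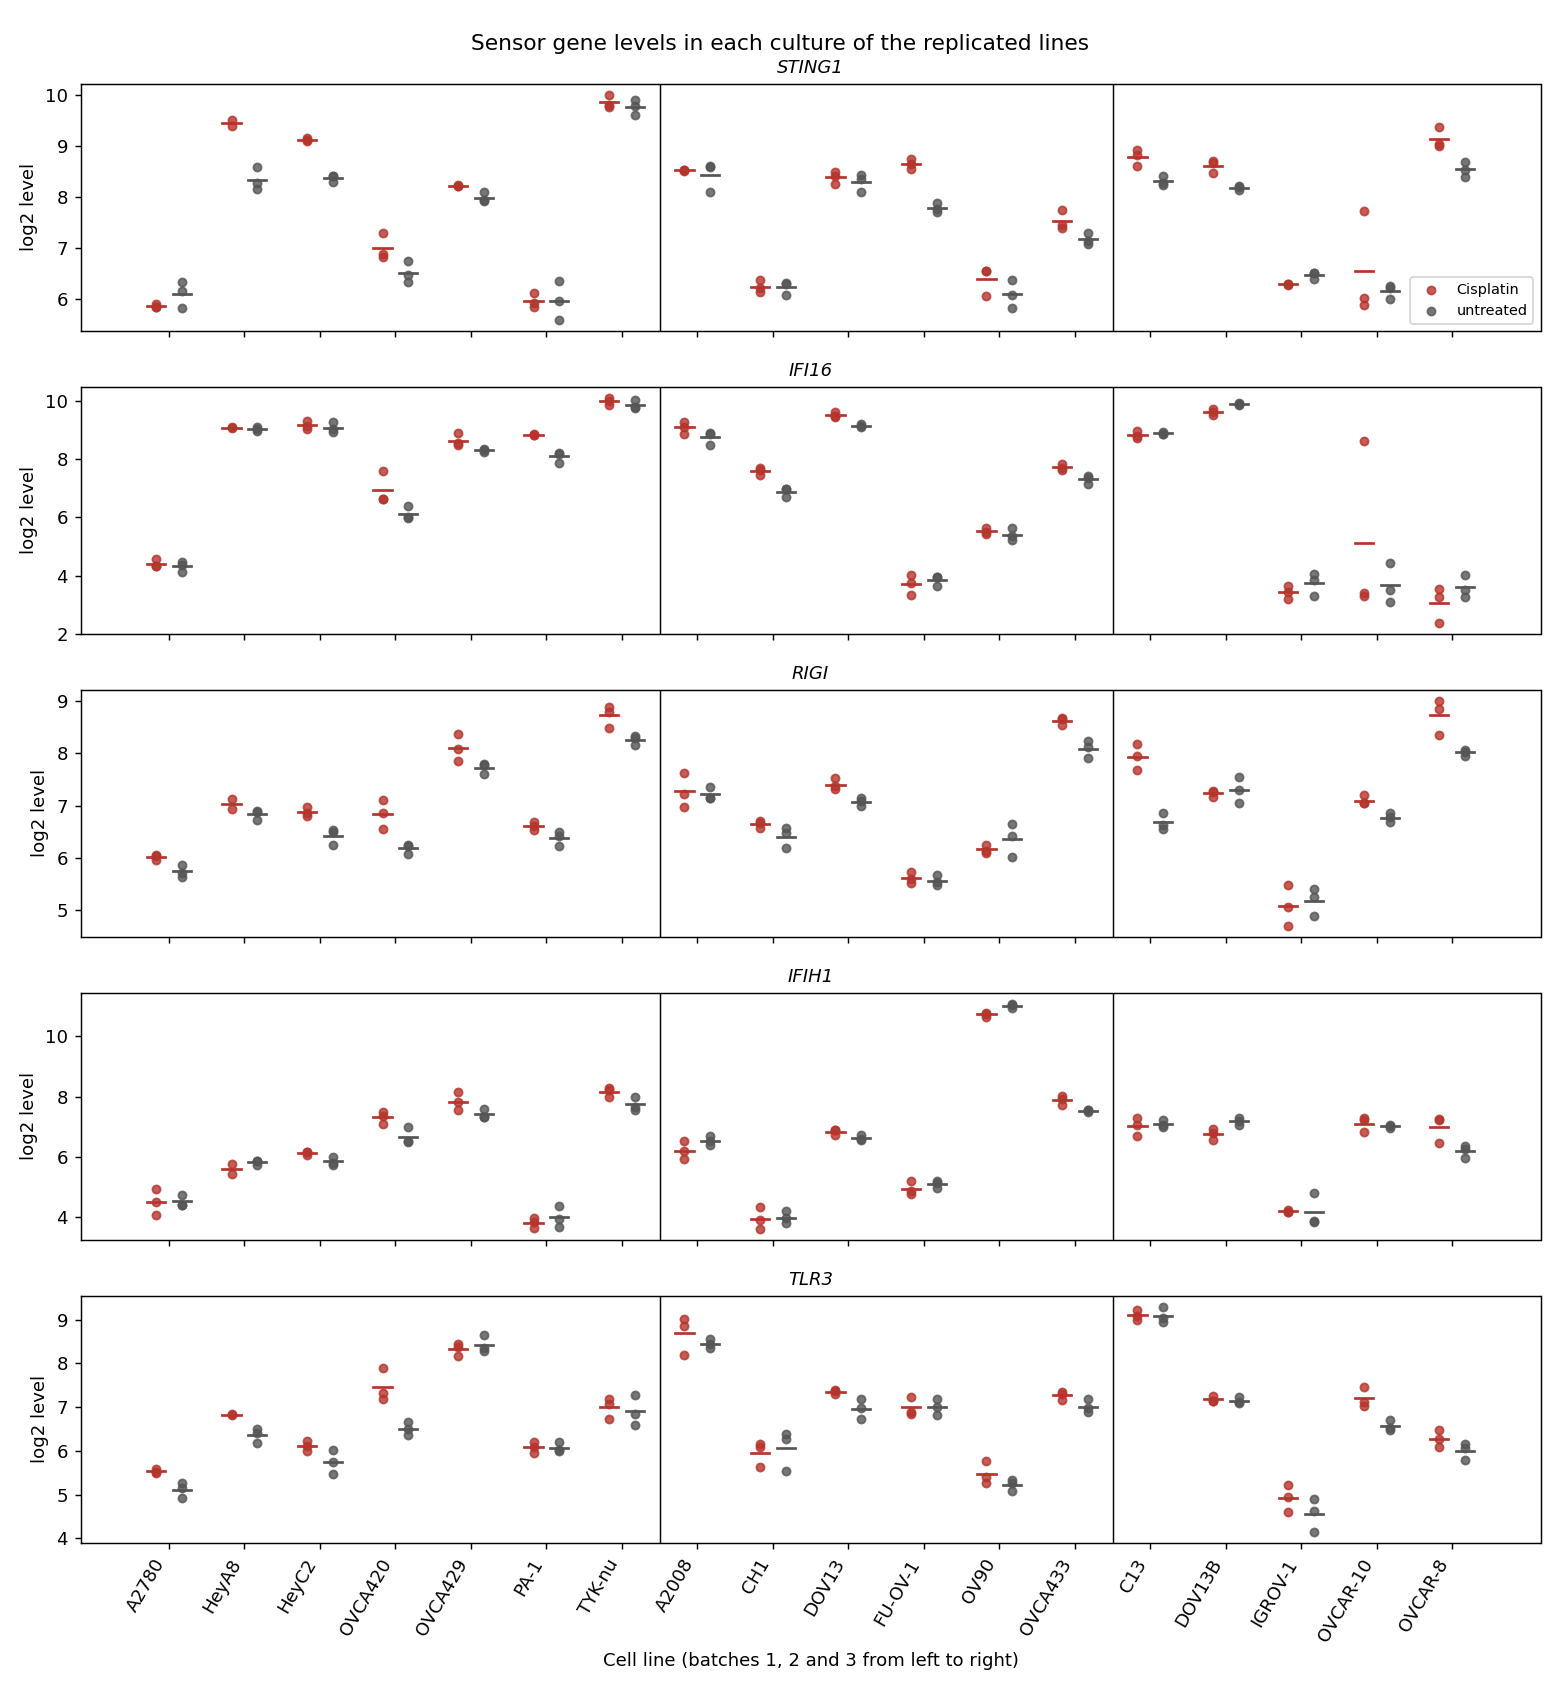
Log2 level of STING1, IFI16, RIGI, IFIH1 and TLR3 in every culture of the 18 replicated lines, with cisplatin cultures in red left of untreated cultures in grey for each line and a bar at each mean. The cisplatin cultures of C13 lie above its untreated cultures for RIGI, and 1 cisplatin culture of OVCAR-10 lies far above the other 2 for IFI16 and STING1.

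Between related lines, the response of RIGI differed in 1 pair. Of 30 comparisons of a sensor in 3 pairs of lines, this 1 passed and 5 had an unadjusted p under 0.05. The share of all genes at that unadjusted threshold was not counted. C13, a cisplatin-resistant derivative of the cells labelled A2008, changed by 1.24 in RIGI and A2008 by 0.06. The difference was 1.18 ± 0.21 (SE, 95% interval 0.77 to 1.59, adjusted p = 8.60e-05), beside 4.82% of all genes for this pair. The cisplatin cultures of A2008 had 6.98, 7.22 and 7.63, against 7.15, 7.14 and 7.36 in its untreated cultures, and these overlapped. Without A2008 untreated culture 1 and the 2 other cultures that stand apart, the difference was 1.21 ± 0.22 (adjusted p = 9.79e-05). In 3 fits that each left out 1 culture number it was 1.04 to 1.37. At least 1 of those fits gave no call between related lines, so the RIGI difference did not always pass. C13 lay in batch 3 and A2008 in batch 2, so line and batch cannot be told apart in this difference. For HeyC2 against HeyA8, where 0.755% of all genes passed, the difference in STING1 was -0.37 with an interval of -0.94 to 0.19. For DOV13B against DOV13, where 0.0814% passed, the difference in RIGI was -0.39 with an interval of -0.80 to 0.02. That in IFIH1 was -0.63 with an interval of -1.15 to -0.11 (adjusted p = 0.285). DOV13B lay in batch 3 and DOV13 in batch 2, so line and batch cannot be told apart for this pair either.

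RIGI and IFIH1 had the highest positive correlation of their changes among the pairs of sensors. Both were higher in 23 of 46 lines and both lower in 8, while RIGI alone was higher in 12 and IFIH1 alone in 3. The Pearson r of the 2 changes was 0.60 and the Spearman rho 0.54 over 46 lines, and r was 0.57 over the 44 lines other than Hey and OVCAR-10. SKOV-6 changed by 1.58 in RIGI and 2.00 in IFIH1, and OV56 by -1.62 and -1.17. C13 changed by 1.24 in RIGI alone, and OVK-18 by 0.35 in RIGI and -1.30 in IFIH1. CGAS and RIGI had an r of 0.53, which was 0.39 over 44 lines, and IFI16 and AIM2 an r of -0.63, which was -0.39 over 44 lines. STING1 and CGAS, which work in 1 route, had an r of -0.04, which was -0.22 over 44 lines. The points of such a correlation share arrays, so it is given as a description.

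**Figure D4:**
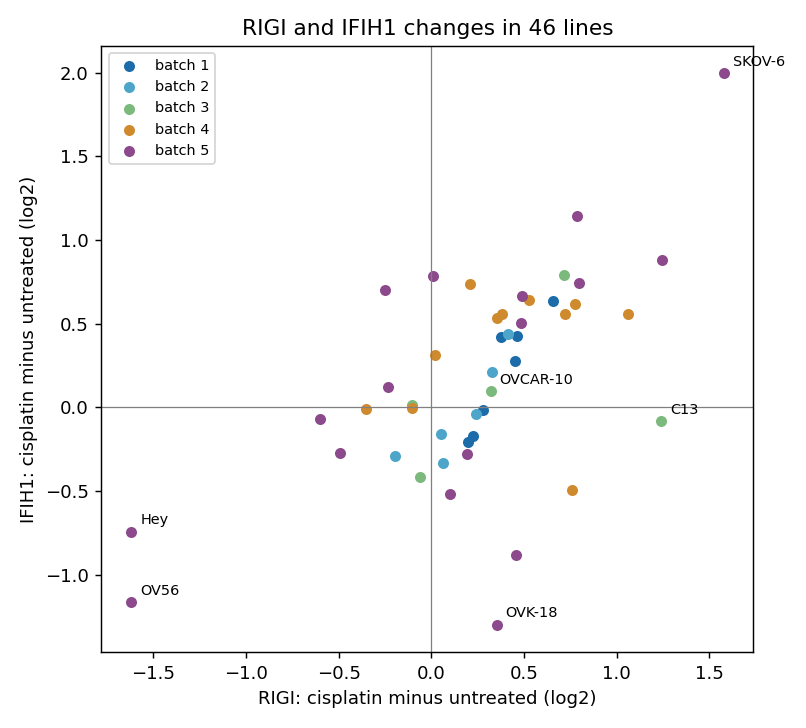
Change of IFIH1 (vertical) against change of RIGI (horizontal), both as cisplatin minus untreated on the log2 scale, with 1 point per line coloured by batch. Most points run from lower left, where OV56 and Hey lie, to SKOV-6 at upper right, and C13 and OVK-18 lie off that run.

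The mean change of 28 interferon-stimulated genes went with these 2 sensors. Its Pearson r over 46 lines was 0.61 with IFIH1 and 0.50 with RIGI, and 0.60 and 0.49 over 44 lines. It was 0.38 with IFI16, 0.28 with TLR3, 0.07 with STING1 and 0.02 with DHX58. Of all genes, those most like RIGI in change were IPMK (0.80) and CDC14A (0.78), and those most like IFIH1 were RICTOR and KIF27 (0.75 each). For STING1 they were TLR4 (0.61) and CALCOCO1 (0.60), for CGAS WDR43 (0.76) and GTPBP4 (0.75), for IFI16 SP1 (0.75) and FGF5 (0.72), and for TLR3 BTBD8 and MAN2A1 (0.71 each). For AIM2 they were OR6C2 and SLC13A1 (0.84 each), which were 0.60 and 0.55 without Hey and OVCAR-10.

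**Figure D5:**
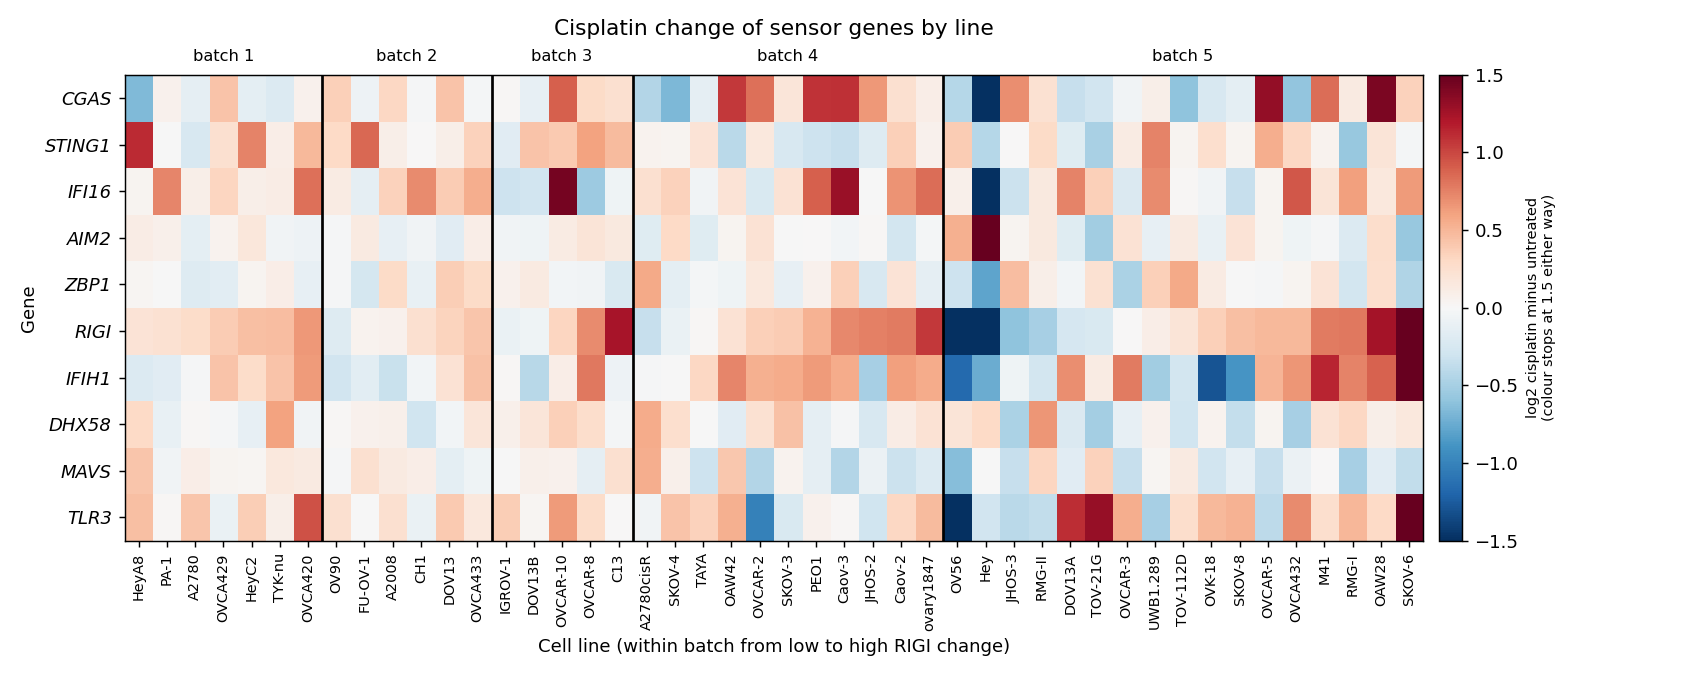
Change of each sensor gene (rows, cisplatin minus untreated, log2) in each of 46 lines (columns), ordered within batch by the RIGI change, with colour that stops at 1.5 either way. Red in the RIGI row is often red in the IFIH1 row, as in OVCA420, OVCAR-8, OAW28 and SKOV-6, and the STING1 row is deepest red in HeyA8.

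Genes that act beside or after the sensors were counted from lists. Of 13 other nucleic acid sensors measured, 3 were higher over the 46 lines and 1 lower, with a median change of 0.023. These were OAS1 (0.39, adjusted p = 4.05e-05), OAS3 (0.32) and OAS2 (0.24), enzymes that make a second messenger on double-stranded RNA, and the helicase gene DHX9, which fell by 0.25. Of 16 adaptors, kinases and transcription factors, 3 were higher and 0 lower: IRF1 (0.35), RELA (0.17) and TICAM1 (0.13), the adaptor of TLR3. The kinase gene TBK1 changed by 0.03 ± 0.071 and IRF3 by 0.09 ± 0.045, neither past the threshold. Of 19 regulators, RNASEH2A, a subunit of the enzyme that clears RNA from RNA:DNA hybrids, was higher (0.23) and G3BP1, a stress granule protein, was lower (-0.16).

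Counts for outputs stand beside the 4.98% of all genes higher and 4.72% lower, and 1 gene of a list of this size is near that share. Of 13 interferon and chemokine genes 1 was higher, IL6 (0.75 ± 0.17, adjusted p = 0.00255), and 0 were lower. CXCL10 changed by 0.37 ± 0.133 (adjusted p = 0.0657) and IFNB1, the gene of interferon beta, by 0.01 ± 0.065. Of 12 interferon receptor and JAK-STAT genes, IRF9 was higher (0.15). Of 28 interferon-stimulated genes 10 were higher and 0 lower, with a median of 0.18; HERC5 (0.41), IFIT2 (0.37) and IFIT3 (0.37) had the largest changes. Of 10 inflammasome and necroptosis genes 3 were higher, IL1B (0.36), IL18 (0.31) and CASP4 (0.22), and 0 lower. The leukocyte marker LAPTM5 was higher by 0.31, 1 of 13 such markers, and 0 of 6 endothelial and 0 of 8 ovarian carcinoma markers passed; their part in the sensor values was not tested.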

How the data were processed

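Expression of 46 ovarian cancer cell lines, with and without cisplatin, was measured on 171 arrays. The deposited table holds log2 values of 33297 probe sets, which the authors summarised by RMA according to the submitters' processing notes. The version of RMA and the build are not given in the sources used here. Precision is limited by the number of arrays.

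Repeat arrays (4) of a numbered culture were averaged, which left 167 cultures. Probe sets with 1 symbol (19460) gave 18417 genes, with the highest-mean probe set kept per gene. In R 4.3.3 with limma 3.58.1, the cisplatin mean minus the untreated mean of the same line and batch was tested against 0 over 46 lines. A group-means model over 18 replicated lines gave contrasts per line, between related lines and F tests. Benjamini-Hochberg adjustment ran over all 18417 genes with a threshold of 0.05. OVCA433, in batches 2 and 4, entered as a least-squares combination; untreated PA-1 and SKOV-3 of batch 5 had no cisplatin partner there and entered untreated levels only.

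Culture numbers did not pair samples: deviations of same-numbered cultures correlated over 0.1 in 7 of 53 pairs (median -0.025). All 10 sensors were named in every comparison, and of each other list up to 3 genes past the threshold with the largest change, or the 1 with the lowest p. The 10 genes and the lists were chosen with earlier results of these data known. Alternatives changed batches, lines, weights, scaling, probe sets and cultures. The test over lines and the contrast within a replicated line, for C13, were tested on simulated data, and the other steps were not. Some listed genes are not reported here.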

Additional observations from a re-analysis of the deposited data

Results flagged for a closer look

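Of 60 groups of lines within a batch tested for a line that stands far from the others, 4 gave one, and chance gives about 1 in 20. In batch 2, untreated OVCA433 lay at 4.04 for AIM2, with the next of 6 lines at 3.13, and at 8.48 for MAVS, with the next at 7.98. In batch 3, the cisplatin change of IGROV-1 in STING1 was -0.17, with the next of 5 lines at 0.39. The change of OVCAR-10 in IFI16 was 1.43, with the next line at -0.07, and it rests on cisplatin culture 1 of that line.

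The cisplatin change differed between the 18 replicated lines for 6 sensors, beside 51.0% of all genes in the same test. The count of sensors lies near that share, so it cannot be read as particular to them. The adjusted p of limma's F test was 0.000586 for STING1, 1.45e-06 for RIGI, 0.000496 for IFIH1, 0.0234 for DHX58, 0.0201 for MAVS and 0.0139 for TLR3. The RIGI change of C13 minus that of A2008 was 1.18, and line and batch cannot be told apart there.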

How the results depend on the processing

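Except where a share is given above, the share of all genes was not set beside the counts in this section. A change in such a count therefore cannot be read as particular to the sensors. Over the 46 lines the number of sensors higher was 2. It was 0 without batch 1, 2 or 4, 1 without batch 3 (IFI16), 0 in each batch alone, 0 in the 28 lines with 1 culture per arm and 0 with robust variance estimates and a mean-variance trend, which were tried together. It was 1 with batches weighted equally (STING1), 4 with lines weighted by cultures (STING1, IFI16, RIGI and TLR3), 1 with OVCA433 from batch 2 only (RIGI) and 1 without cisplatin culture 1 of OVCAR-10 (RIGI). Leaving out a line or a culture number gave 0 to 3 higher and 0 to 0 lower, with ZBP1 between -0.0003 and 0.0334. The IFI16 call ended without Caov-3 (adjusted p = 0.0787, the highest) and without HeyC2, OVCA420, OVCA429, PA-1, TYK-nu, A2008, CH1, DOV13, OV90, OVCA433, OVCAR-10, A2780cisR, Caov-2, OAW42, PEO1, SKOV-3, SKOV-4, ovary1847, DOV13A, M41, OAW28, OVCA432, OVCAR-5, RMG-I, RMG-II, SKOV-6, TOV-21G or UWB1.289. The RIGI call ended without OAW28 (0.0733, the highest) and without A2780, HeyA8, HeyC2, OVCA420, OVCA429, TYK-nu, CH1, DOV13, OVCA433, C13, OVCAR-10, OVCAR-8, Caov-2, Caov-3, JHOS-2, OAW42, OVCAR-2, PEO1, SKOV-3, ovary1847, M41, OVCA432, OVCAR-5, OVK-18, RMG-I, SKOV-6, SKOV-8 or TOV-112D. Without Hey the adjusted p was 0.00184 for IFI16 and 0.00587 for RIGI, and 3 sensors passed, with STING1. The mean stayed at 0.20 to 0.28 for IFI16 and 0.23 to 0.30 for RIGI over these 46 fits.

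Directions of sensors that did not pass turned in some sets of lines. MAVS was 0.0152 without batch 5, 0.1189, 0.0413 and 0.0480 in batches 1, 2 and 3 alone, 0.0733 in the 18 replicated lines and 0.0029 weighted by cultures. CGAS was -0.0860 and ZBP1 -0.0460 in batch 1. ZBP1 was -0.0256 in batch 3, -0.0007 in batch 5 and -0.0003 without replicate 2. AIM2 was -0.0201 in batch 2, -0.0133 in batch 4, -0.0003 without Hey and OVCAR-10 culture 1 and -0.0064 without OAW28 as well. IFIH1 was -0.0280 in batch 2, STING1 -0.0563 in batch 4 and DHX58 -0.0223 in batch 5.

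Within replicated lines the 16 higher pairs became 10 with each line fitted alone, plus 1 lower (CGAS in HeyA8), and 4 with a minimum change of 1.2-fold (RIGI in C13, STING1 in FU-OV-1 and HeyA8, TLR3 in OVCA420). Leaving out cultures or a culture number gave 7 to 21 higher and 0 to 1 lower pairs, 2 to 6 sensors that differed between lines and 0 to 2 calls between related lines. The untreated counts were 8 to 8, 9 to 10 and 8 to 8 in batches 1, 2 and 3. IFI16 in OVCAR-10 was -0.6154 without replicate 1, -0.3168 without cisplatin culture 1 and 2.703 without replicate 3, and the first and last of these are its lowest and highest values. Single cultures of its own line ended 9 calls, and cultures of other lines also ended IFI16 in OVCAR-10 in 34 of the 53 fits and DHX58 in TYK-nu in 12. These were DHX58 in TYK-nu (any but untreated 3), TLR3 in OVCAR-10 (cisplatin 1 or any untreated), IFI16 in OVCAR-10 (cisplatin 1, untreated 1 or 2), RIGI in OVCA433 (cisplatin 1 or 3, untreated 2 or 3), MAVS in FU-OV-1 (cisplatin 2 or 3, untreated 1 or 2) and MAVS in HeyA8 (cisplatin 3, untreated 2). The others were IFIH1 in OVCA420 (cisplatin 3, untreated 2 or 3), STING1 in OVCAR-8 (cisplatin 1, untreated 2 or 3) and STING1 in HeyC2 (untreated 3). The highest adjusted p of the 7 calls that held was 0.0279, for RIGI in OVCA420.

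With the replicate number as a block, which the labels do not pair, 13 pairs were higher and 0 lower, 5 sensors differed between lines, and RIGI in C13 minus A2008 was 1.18. Over 46 lines no block was fitted: only culture numbers found in both arms were kept, which alters HeyA8 alone. IFI16 and RIGI passed there, which says little about blocking. Without every library taken to stand apart the lower pairs numbered 1, IFI16 in OVCAR-10 was -0.3168, and IFIH1 in OVCA420 and TLR3 in OVCAR-10 did not pass. Where a call ended, the cause was not tested. Brightness limits AIM2, ZBP1 and DHX58, which were seldom or never above the array median.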
